A study of Caenorhabditis elegans with 2 samples.

Results

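Transfer RNA genes are the short genes whose RNA products carry amino acids to the ribosome. All 612 nuclear genes of biotype tRNA in the Ensembl annotation of the Caenorhabditis elegans genome (assembly WBcel235, the same as ce11) were taken, out of 46890 annotated nuclear genes. The 22 mitochondrial tRNA genes were left out, and the 209 annotated tRNA pseudogenes were kept apart as a comparison class. A tRNA gene was called bound when the summit of a thresholded LIN-35 ChIP-seq peak lay inside the gene body or within 100 bp of either end of it. LIN-35 ChIP-seq recovers DNA that was crosslinked to the pocket protein LIN-35, so a summit marks the point of highest recovery in a peak.

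The study holds 1 group of 2 biological replicates, each a whole-worm preparation of young adults of strain YL521 with both sexes pooled and chromatin sheared by sonication; the labels list the antibody as lin-35. Worms carried unc-119(ed3) on chromosome III and the transgene vrIs117, in which the pie-1 promoter drives LIN-35 with a GFP and FLAG tag, followed by the puf-5 3′UTR and an unc-119(+) rescue marker. Both of these regulatory sequences come from germline genes, the transgene is integrated, and the share of tagged and of endogenous protein in the recovered material is not stated in the labels. With whole worms, few cells with much LIN-35 at a gene and many cells with little cannot be told apart, and no group without LIN-35 was analysed here.

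In eukaryotes, tRNA genes are transcribed by RNA polymerase III from promoters that lie inside the gene. The factor TFIIIC binds an A box near the start of the gene and a B box further in, and then places TFIIIB just upstream of the start, which recruits the polymerase; a run of T after the gene ends transcription. LIN-35 is the only worm member of the retinoblastoma protein family and a subunit of the DREAM complex, which binds promoters of cell cycle genes next to an E2F-DP pair. In mammalian cells the retinoblastoma protein has also been found to repress RNA polymerase III through TFIIIB.

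The sequences below come from 4 of the largest groups of identical tRNA genes, and show what the copies share (the boxes) and what they do not (the flank). They were read from the RefSeq genome of assembly WBcel235, 5′ to 3′ on the strand of the gene. Box lines hold gene bases 1 to 30 or 42 to 71, with the A box word or the B box word in capitals; upstream lines hold the 30 bases before the gene. The proline gene T23F1.t2 lies at chrV:15465225-15465296 on the minus strand, and its 72 bases occur in 24 genes, 7 of them bound. The sequence of the alanine gene Y7A9D.t2 (chrIV:16389211-16389282, minus) occurs in 15 annotated tRNA genes, 7 of them bound. That of the glutamine gene R04A9.t1 (chrX:410391-410462, plus) occurs in 15, with 2 bound. That of the threonine gene ZK563.t1 (chrX:3371422-3371493, minus) occurs in 15, with 8 bound.
Pro A box: ggccgaaTGGTCTAGTggtatgattctcgc
Ala A box: gggggtaTAGCTCAGTggtagagcgctccc
Gln A box: ggttccaTGGTGTAGCggttagcactcagg
Thr A box: gcctcatTGGCTCAGTggcagagcgtctgt
Pro B box: gaggtcccggGTTCAATCCccggttcggcc
Ala B box: gagggctgggGTTCAATTCcccatacctcc
Gln B box: tgcgacccgaGTTCAAATCtcggtggaacc
Thr B box: aaggtcgctgGTTCGATTCcagcatgaggc
Pro upstream, bound copy T23F1.t2: gtgtatacctccgtgaagcatgtctctcgt
Pro upstream, bound copy W09D6.t2: gtctttgcctcctgggaagcaaagtttcgc
Pro upstream, unbound copy ZK970.t1: ttgaaatgtcggctttcatcaagttttcgt
Pro upstream, unbound copy ZK970.t2: tgaacgcattgtggatcgaggtgaaatcgt
The unbound proline copies ZK970.t1 (chrII:10302399-10302470, plus) and ZK970.t2 (chrII:10305011-10305082, plus) have no summit within 100 bp in any list, while W09D6.t2 (chrIII:11066848-11066919, minus) and T23F1.t2 do, although all 4 gene bodies are the same. Both bound copies share their summit with a neighbouring tRNA gene that lies nearer to it. The summit is 50 bp from T23F1.t2 and 17 bp from the lysine gene T23F1.t1. It is 66 bp from W09D6.t2 and 42 bp from the proline gene W09D6.t1. Which gene of each pair such a summit belongs to cannot be told apart.

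The authors deposited a list of 2712 peaks that passed an irreproducible discovery rate threshold, a measure of how well 2 replicates rank the same peaks. They also deposited relaxed lists of peaks and background of 30000 peaks for the pooled replicates, 30000 for replicate 1 and 26192 for replicate 2. All 2712 thresholded summits were among the 2712 strongest of the pooled list. The thresholded list thus amounts to a cut of the pooled ranking, and a thresholded peak can rank low in a replicate list. For comparison with the thresholded list, each replicate list was cut to its 2712 strongest peaks by the authors' signal value. The scale of that signal is not stated, so it ranks and describes peaks within a list only, and the read depth of the libraries is unknown here. Shares are given with 95% Wilson intervals, which cover counting error only.

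LIN-35 summits lay at 190 of the 612 nuclear tRNA genes, which is 31.0% (27.5 to 34.8). The same share was 28.8% (176 genes) with the strongest peaks of replicate 1 and 26.8% (164 genes) with those of replicate 2. As a background, 0.726% of all nuclear positions that start a window of 72 bp, the median length of a tRNA gene, would be called bound by the same rule. That background was 0.727% and 0.728% for the strongest peaks of replicates 1 and 2. The tRNA genes therefore stood well above the genome at large in each list.

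Demanding that a thresholded peak be among the strongest of both replicates, with summits within 200 bp of each other, kept 102 bound tRNA genes, or 16.7% (13.9 to 19.8), against a background of 0.385%. In the whole pooled relaxed list, 313 tRNA genes (51.1%) had a summit within 100 bp, against a background of 8.0%. Taken over the whole thresholded list, 181 of the 2683 nuclear summits (6.75%, 5.86 to 7.76) were at a tRNA gene. Each of these 181 summits was the only one within 100 bp of its gene, and 9 of them were shared by 2 neighbouring genes.

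Among the annotated biotypes scored by the same rule, tRNA genes had the highest share; a smaller set, the 18 SL2-type spliced leader RNA genes, had 9 bound. Genes of snoRNAs, which guide chemical modification of ribosomal and other RNAs, followed with 68 of 346 bound (19.7%, 15.8 to 24.2), and genes of snRNAs, the RNAs of the spliceosome, with 17 of 129 (13.2%, 8.39 to 20.1). The interval of the tRNA genes lay above that of the snoRNA genes in the thresholded list. The 2 classes' intervals overlapped with the strongest peaks of replicate 1, where snoRNA genes reached 20.8% (16.9 to 25.4) and tRNA genes 28.8% (25.3 to 32.5), and with those of replicate 2. Among peaks strong in both replicates the snoRNA share was 15.9% (12.4 to 20.1), close to the 16.7% of the tRNA genes. Classes differ in length, so a longer gene presents a larger target than a tRNA gene under this rule.

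Windows of 72 bp at the 5′ ends of 19973 coding genes had a summit within 100 bp in 372 cases (1.86%, 1.68 to 2.06). Of 261 miRNA genes 5 were bound (1.92%, 0.821 to 4.41), and of the 15363 very short piRNA genes 8 (0.0521%). Of 20 rRNA genes none had a summit, with a Wilson upper bound of 16.1%. The tRNA pseudogenes, sequences derived from tRNA genes that are annotated as no longer functional, were close to the genome at large: 2 of 209 were bound (0.957%, 0.263 to 3.42). Replicates 1 and 2 gave 3 and 2 bound pseudogenes, and the pooled relaxed list 22.

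**Figure D1:**
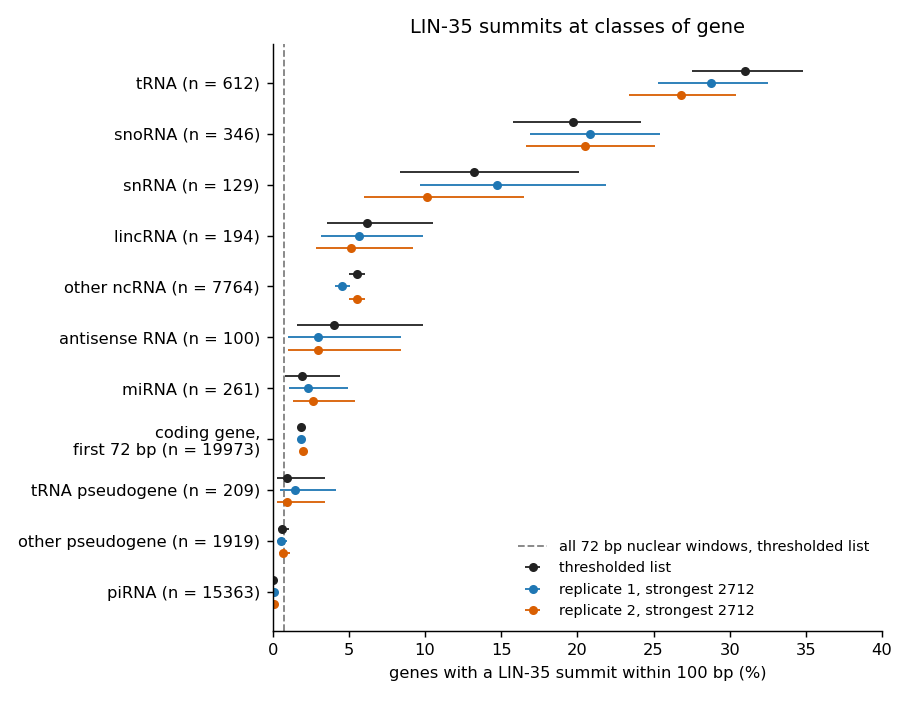
Share of genes with a LIN-35 summit within 100 bp (%), by gene class, in the thresholded list and in the 2712 strongest peaks of each replicate; points are shares, lines are 95% Wilson intervals and the dashed line is the share of all 72 bp nuclear windows (0.726%). tRNA genes have the highest share of the classes drawn in all 3 lists, and tRNA pseudogenes sit near the dashed line; the 20 rRNA genes, none of them bound, are not drawn.

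Binding was close to the genes and not spread around them. The nearest thresholded summit was inside the gene body for 77 genes (12.6%) and 1 to 100 bp away for 113 (18.5%). A further 16 genes had theirs beyond 100 and up to 200 bp away, 20 up to 500 bp and 27 up to 1000 bp, while 359 genes (58.7%) had none within 1000 bp. Few genes therefore lay near the limit of 100 bp. The last genes inside it were F09B9.t1 at 94 bp, M02F4.t2 at 91 bp and F56F3.t1 at 91 bp. The first outside were F47G6.t1 at 102 bp, C28G1.t1 at 114 bp and C53C7.t1 at 115 bp.

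Given to the nearest tRNA gene and read along its strand, 75 of the 181 summits (41.4%, 34.5 to 48.7) were upstream of the first base. Inside the gene were 77 (42.5%, 35.6 to 49.8), and past its last base 29 (16.0%, 11.4 to 22.1). The median summit was 14 bp from the first base, with quartiles at -16 and 61 bp, where negative values are upstream. More summits thus lay before the gene than after it. With the strongest peaks of replicate 1 the upstream, inside and downstream shares were 33.7%, 47.2% and 19% over 163 summits, and the median was 30 bp. Replicate 2 gave 41.6%, 42.9% and 15.6% over 154 summits, with a median of 15 bp. Between the replicates the summits of 1 gene were a median of 37 bp apart (quartiles 13 and 61 bp) over the 237 genes with a summit in both relaxed lists, against a median gene length of 72 bp.

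In bins of 50 bp the thresholded list held 68 summits just upstream of the genes, 51 in the first 50 bp from the first base and 38 in the next 50 bp. It held 14 at 100 to 149 bp, and 7 at 51 to 100 bp upstream. The mean density of nuclear summits would give 0.819 summits per bin over 612 genes. Counts within 1000 bp fell to that level beyond about 200 bp on either side. In the genes with the box words, the A box began at a median of base 8 and the B box at a median of base 53. Summits lay before, across and past this stretch, and whether they mark the site of any factor was not tested.

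**Figure D2:**
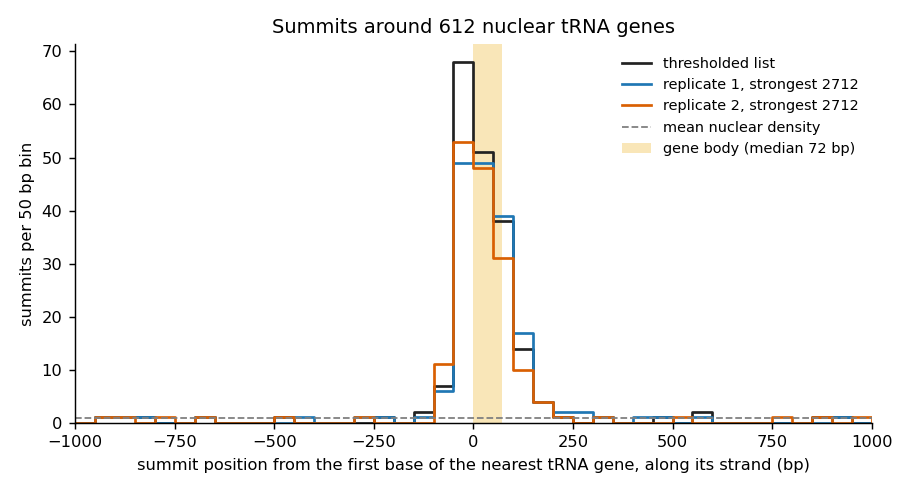
Number of summits per 50 bp bin against the position of the summit from the first base of the nearest tRNA gene along its strand (bp), for the thresholded list and the strongest 2712 peaks of each replicate; shading marks a gene body of the median 72 bp and the dashed line the count at the mean nuclear density. All 3 lists peak between 50 bp upstream and 100 bp downstream of the first base, with 68, 51 and 38 thresholded summits in those bins.

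The 2 replicates named partly different tRNA genes. By the strongest peaks of each, 104 genes were bound in both, 72 in replicate 1 alone, 60 in replicate 2 alone and 376 in neither. Of the 190 bound genes of the thresholded list, 96 were among the 104, 73 were found in 1 replicate and 21 in neither, and 8 of the 104 had no thresholded summit within 100 bp. In the full relaxed lists 338 genes had a summit in replicate 1, 325 in replicate 2 and 237 in both, of which 158 were in the thresholded list. No summit in any list was within 100 bp of 174 genes. Across the 237 genes the ranks of the peaks in the replicate lists had a Spearman correlation of 0.505; this describes genes of the same 2 libraries, some of which share a summit.

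Gaps in rank between replicates exist only for the 158 bound genes with a summit in both relaxed lists. Bound genes with no summit in a replicate list have no gap and were left out. The largest gaps were as follows. T03E6.t1, a glutamine tRNA gene, had rank 29686 in replicate 1 and 1376 in replicate 2. F53F8.t1, a cysteine tRNA gene, had ranks 24990 and 1649, and K07A1.t1, a serine tRNA gene, 18816 and 1359. All 3 were outside the 2712 strongest peaks of replicate 1 and inside those of replicate 2, and they stood at ranks 1485, 2202 and 1647 of the thresholded list. The lists differ in length, so a difference in rank is no change in binding. C28G1.t1, the glutamate tRNA gene just outside 100 bp, ranked 429 and 442 in the replicate lists and was chosen here after its values were seen.

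**Figure D3:**
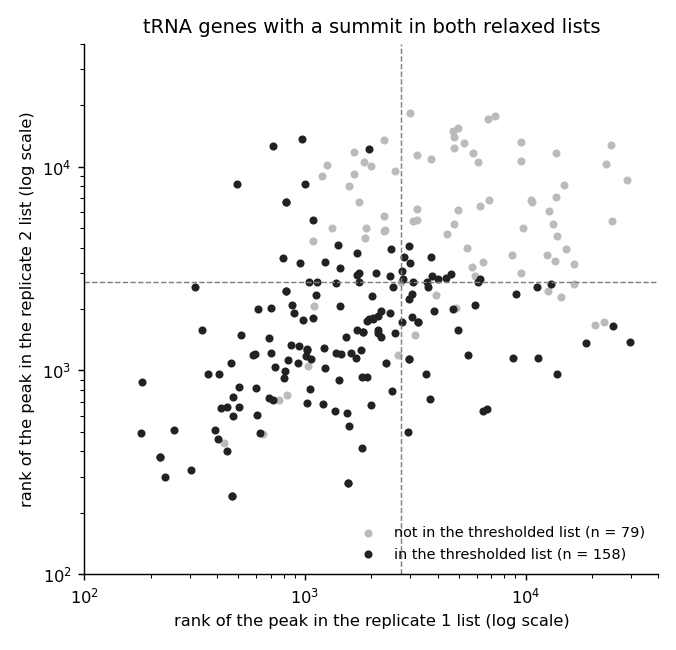
Rank of the peak at each tRNA gene in the replicate 1 list (x, log scale) and the replicate 2 list (y, log scale) for the 237 genes with a summit within 100 bp in both relaxed lists; 158 are in the thresholded list (black) and 79 are not (grey), and dashed lines mark rank 2712. Ranks rise together with wide scatter (Spearman correlation 0.505), and 3 black points at the far right have ranks of 18816 to 29686 in replicate 1 and 1359 to 1649 in replicate 2.

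tRNA genes were bound at middling signal. The 181 summits had a median signal of 67.91 (95% interval of the median 62.4 to 76.5), and the other 2502 nuclear peaks 68.19 (66.51 to 69.92). Counted per gene, the 190 bound genes had a median of 70.49 (63.12 to 76.5). The tops of the lists differed: the strongest peak at a tRNA gene had a signal of 203.2 and rank 250, whereas other nuclear peaks reached 2773, and none of the 100 strongest peaks was at a tRNA gene. Split by rank into 4 bins of 678 peaks, the thresholded list held 26 peaks at tRNA genes in the strongest bin (3.83%), 64 in the next (9.44%), then 53 (7.82%) and 38 (5.6%). The interval of the second bin (7.46 to 11.9%) lay above that of the strongest (2.63 to 5.56%).

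Replicate support at tRNA genes followed the signal, as at other peaks. The signal comes from the same 2 replicates pooled, so a fall in support down the bins is partly built in. Among tRNA peaks of the strongest bin 96.2% were among the strongest of both replicates, and in the following bins 81.2%, 32.1% and 5.26%. Other nuclear peaks gave 97.4%, 72.4%, 34.1% and 9.23%. Over all bins the share was 53.0% for both kinds.

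The strongest bound tRNA genes were a pair. T23F1.t1, a lysine gene, and T23F1.t2, the proline gene printed above, lie end to end on opposite strands with 66 bp between them, and the summit of signal 203.2 lay between their 3′ ends. The peak had a signal of 53.3 in replicate 1 and 134.7 in replicate 2, at ranks 467 and 243. C33G3.t2, a lysine gene on X at chrX:14063946-14064018, followed with a signal of 192.5 (81.12 and 116.4 in replicates 1 and 2) and its summit 16 bp upstream. W03G11.t1, a lysine gene of the 25-copy group, had 185.2 (69.08 and 111.6) with the summit 19 bp upstream. R11.t1, a tyrosine gene, had 183.2 (96.97 and 87.43) with the summit 6 bp upstream. All of these peaks were within the 500 strongest of both replicate lists.

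The proline genes W09D6.t1 and W09D6.t2 stand head to head inside rsa-2, a gene of spindle assembly, and shared a summit of 171.9 in the 107 bp between them. That peak was less even between replicates, with 26.85 at rank 1562 in replicate 1 and 120.3 at rank 280 in replicate 2. The glycine and glutamate genes M02F4.t1 and M02F4.t2, also head to head, shared a summit of 169.8 (83.41 and 102.4). F57F5.t1, an isoleucine gene whose sequence occurs once, had 151.7 (58.92 and 85.02). Its summit lay 356 bp from the 5′ end of gcy-33, a guanylate cyclase gene. F15G9.t1, an alanine gene inside him-4, the hemicentin gene, had 150.2 (95.5 and 60.13) with the summit 1 bp upstream. F46G11.t2, another copy of the 24-copy proline gene, had 148.9 (75.55 and 84.81). Of these 12 strongest genes with support in both replicates, 10 had the summit upstream of the first base and 2, the T23F1 pair, past the last base; F57F5.t1 alone had a coding 5′ end within 500 bp of its summit.

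Further down, C04A11.t1 was the strongest leucine gene with a signal of 144.1 and the summit at gene base 32. R04D3.t2 was the strongest valine gene with 139.7 at gene base 62. F38G1.t2, the strongest aspartate gene with 124.4, lies inside egl-17, a fibroblast growth factor gene, with its summit 228 bp from the 5′ end of egl-17. B0523.t1 in fli-1, the worm flightless gene, was the only bound tryptophan gene, with 115.4; its signal was 18.43 in replicate 1 and 86.31 in replicate 2. ZC449.t1 was the strongest histidine gene with 57.82, the lowest value among the strongest genes of the amino acids.

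Genes for most amino acids were bound at similar shares. The highest shares were 46.2% for cysteine (6 of 13 genes), 45.2% for valine (14 of 31), 44.1% for threonine (15 of 34) and 40.7% for aspartate (11 of 27). The lowest were 8.33% for tryptophan (1 of 12), 15.0% for histidine (3 of 20), 15.8% for tyrosine (3 of 19), 18.5% for glutamine (5 of 27) and 19% for proline (8 of 42). Their intervals were wide: 23.2 to 70.9% for cysteine and 1.49 to 35.4% for tryptophan. The Wilson interval of every amino acid with 10 or more genes included the 31.0% of all tRNA genes. The single selenocysteine gene and the 5 genes whose amino acid RefSeq does not name had no summit.

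Replicates moved the order of the amino acids. Cysteine fell from 53.8% in replicate 1 to 23.1% in replicate 2, on 13 genes, and glycine rose from 16.4% to 30.9% on 55 genes. Alanine stayed within 35.3 to 41.2% in the 3 lists. All 8 bound proline genes had a peak among the strongest of both replicates, against 7 of the 17 bound glycine genes and 2 of the 6 bound cysteine genes.

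**Figure D4:**
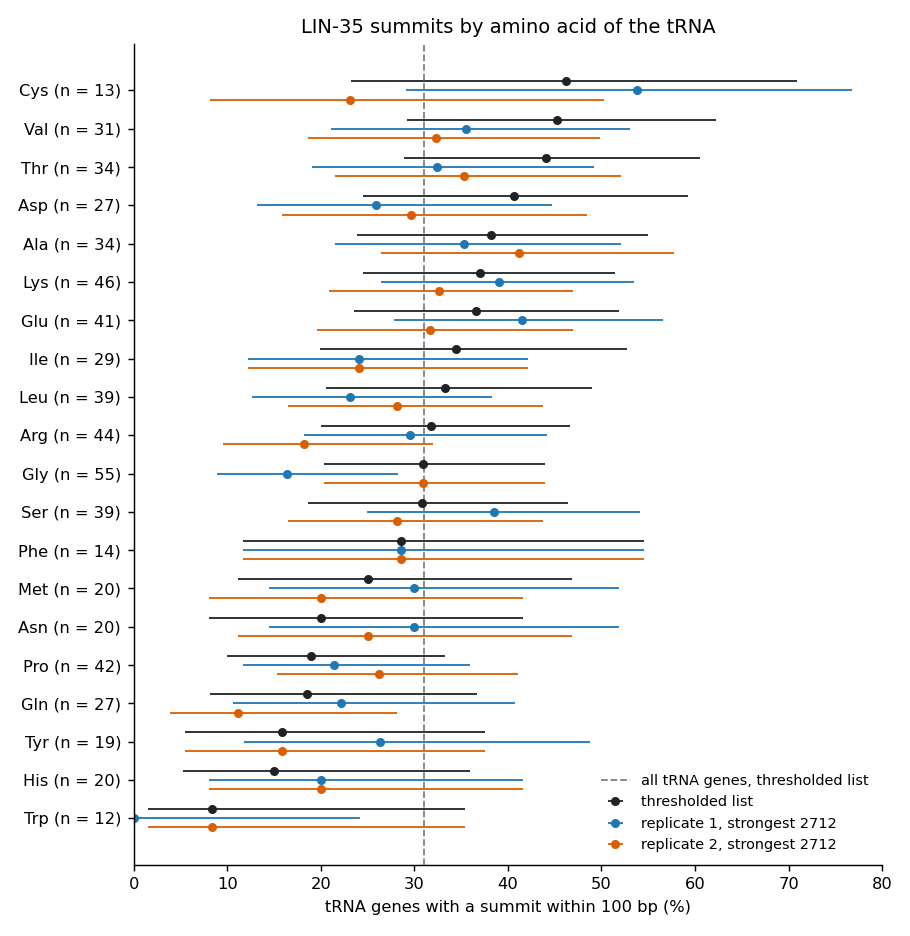
Share of tRNA genes with a summit within 100 bp (%) by amino acid, ordered by the thresholded list, with the strongest 2712 peaks of each replicate beside it; points are shares, lines 95% Wilson intervals, and the dashed line is the share of all tRNA genes (31.0%). Shares in the thresholded list run from 46.2% for cysteine to 8.33% for tryptophan, and the interval of each amino acid in that list crosses the dashed line.

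Many tRNA genes are exact copies of each other, which bears on every count here, since reads from identical copies cannot be told apart within the gene and how they were placed is not given in the sources used here. The 612 genes have 200 different sequences; 143 are carried by 1 gene and 57 by 2 or more, which together make up 469 genes. Of the 57, 46 had bound and unbound copies, 2 had all copies bound and 9 had none bound. In the 46 mixed groups 157 of 440 genes were bound. The flanks do differ: with 100 bp on each side included, only 2 genes shared their sequence with another.

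Genes whose sequence occurs once in the nuclear genome had the lowest share bound. Of 140 such genes 28 were bound (20%, 14.2 to 27.4), and of 139 genes with 20 or more copies 54 (38.8%, 31.2 to 47.1). Shares between these were 35.3% at 2 to 4 copies, 29.4% at 5 to 9 and 32.8% at 10 to 19. The unique genes were lowest in both replicates, at 17.9% (12.4 to 25%) and 20% (14.2 to 27.4%), and those with 20 or more copies reached 33.8% (26.5 to 42%) and 30.2% (23.2 to 38.3%), so the intervals overlapped in replicate 2. The share of unique genes was still far above the background of 0.726%. The part of read placement in the difference was not tested.

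Within the largest group, a glycine gene of 29 copies, 12 were bound, of which M02F4.t1 was strongest. The lysine gene of 25 copies had 10 bound and the proline gene of 24 copies 7. At the other end, a glutamine gene of 15 copies had 2 bound, a histidine gene of 11 copies 1, and a tryptophan gene of 10 copies 1.

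The promoter words inside the genes were at similar shares of bound and unbound tRNA genes, but they could hardly have differed. The B box word was in 95.9% and the A box word in 92.3% of all tRNA genes. In addition, 440 genes belong to groups of identical genes with bound and unbound copies, where these words are the same by construction. The B box word GTTCNANNC (N is any base, gene strand) was in 96.8% of bound and 95.5% of unbound genes, and in 1.48% of windows of 72 bp at coding 5′ ends. The A box word TNGNNNANN, starting at gene base 7, 8 or 9, was in 94.2% and 91.5%, and in 4.65% of coding windows. The terminator word TTTT within 30 bp downstream was in 99.5% and 98.6%, and in 30.7% of coding windows. The tRNA pseudogenes carried the B box word in 78.9%, the A box word in 92.8% and the terminator word in 91.9%, although 2 of 209 were bound. A match describes the letters and is not a bound site.

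E2F words, the letters that the E2F-DP pair of the DREAM complex is known to bind, were at similar shares of bound and unbound tRNA genes. The word TTCCCGC, the variant TTCGCGC, the variant TTGCCGC or the variant TTGGCGC, searched on both strands of the gene with 100 bp on each side, was present at 22 of 190 bound genes (11.6%, 7.77 to 16.9) and at 53 of 422 unbound genes (12.6%, 9.73 to 16.1). Windows of the same length at coding 5′ ends held such a word in 7.05%, and those at tRNA pseudogenes in 27.3%. Put the other way, 29.3% of tRNA genes with an E2F word were bound and 31.3% of those without. The search included the gene body, whose letters identical copies share whether bound or not. Words in the flanks alone were not counted, so these shares do not describe flanking sites.

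The base composition upstream did differ. In the 100 bp before the gene, bound genes had a median GC content of 45.0% (quartiles 40 and 49.0) and unbound genes 40% (34 and 46.0). The gene bodies had a median of 58.3% in both groups, and the 100 bp downstream 31.0% and 30%. The upstream difference was present on X, at 43.0% against 38.0%, and on autosomes, at 46.0% against 42.0%. It was also present with the strongest peaks of replicate 1 (44.0% against 40%) and of replicate 2 (46.0% against 40%). Among the 46 groups of identical genes with bound and unbound copies, the mean upstream GC was higher at the bound copies in 36 and lower in 10, with a median difference of 3.58 percentage points. The split within groups of copies was chosen after the overall values were seen. The part of base composition in what was called bound was not tested.

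The X chromosome carries 276 of the 612 tRNA genes, and how its share bound compared with that of the autosomes depended on the peaks used. On X 92 were bound (33.3%, 28.0 to 39.1) and on the autosomes 98 of 336 (29.2%, 24.6 to 34.2), a difference of 4.17 percentage points with a 95% Newcombe interval of -3.17 to 11.5. Replicate 1 alone gave a wider difference, 35.5% against 23.2%, and replicate 2 alone 27.9% against 25.9%. Without replicate 2 the difference was therefore 12.3 percentage points (5.06 to 19.5) and without replicate 1 it was 2.01 (-4.99 to 9.10). It was 7.07 points (1.25 to 13.0) with the stronger part of the thresholded list and 6.60 points (0.651 to 12.7) with peaks strong in both replicates. With the summit inside the gene body the sign turned, at -3.12 points (-8.30 to 2.24). The backgrounds were 0.578% of windows on X and 0.758% on autosomes, so X as a whole had fewer summits for its length.

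Chromosome V stood lowest, with 13 of 78 tRNA genes bound (16.7%, 10 to 26.5), and it was lowest in replicate 1 (12.8%) and in replicate 2 (17.9%) as well. The other autosomes ranged from 30.3% on I to 37.5% on III, with intervals that overlap each other and that of X. The interval of V overlapped those of I, II and IV and ended just below those of III (from 26.7%) and X (from 28.0%); in replicate 2 it overlapped all of them. Toward the ends of chromosomes, in the outer 25% on each side, 31.9% of autosomal tRNA genes were bound against 26.5% in the centre, and on X 36.0% against 31.1%, with overlapping intervals.

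tRNA genes took up a larger share of the summits on X than on the autosomes. Of 377 thresholded summits on X, 89 were at a tRNA gene (23.6%, 19.6 to 28.1), against 92 of 2306 on the autosomes (3.99%, 3.26 to 4.87). With the strongest peaks of replicates 1 and 2 the share on X was 24.2% and 18.9%, and on the autosomes 3.12% and 3.45%. X also held tRNA genes more densely, with 276 over 17718871 window positions, against 336 over 82553310 on the autosomes. The shares of tRNA genes bound were 33.3% and 29.2%, so the larger share of summits is not a like difference in genes bound. The median signal at tRNA summits was 78.13 on X (63.31 to 86.19) and 63.7 on the autosomes (59.79 to 71.52), with overlapping intervals.

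**Figure D5:**
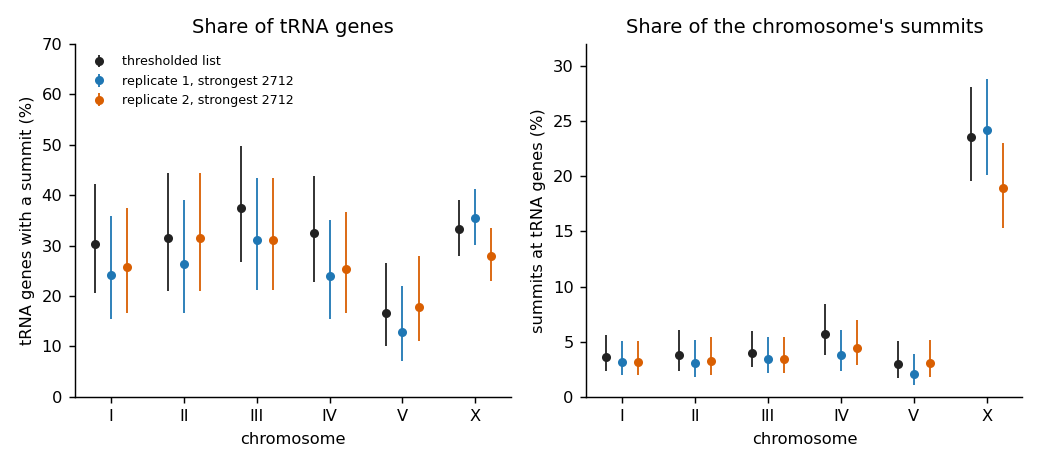
Left, share of tRNA genes with a summit within 100 bp (%) on each chromosome; right, share of the nuclear summits of each chromosome that are within 100 bp of a tRNA gene (%); points are shares in the thresholded list and in the strongest 2712 peaks of each replicate, and lines 95% Wilson intervals. tRNA genes are bound at 16.7% on V and at 30.3 to 37.5% elsewhere, while 23.6% of thresholded summits on X are at tRNA genes and 2.95 to 5.69% on the autosomes. X carries 276 of the 612 tRNA genes, so the right panel depends on where the genes lie as well.

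Most tRNA summits were away from coding promoters. A coding 5′ end lay within 500 bp of 31 of the 181 summits at tRNA genes (17.1%, 12.3 to 23.3), against 1323 of 2502 other nuclear summits (52.9%, 50.9 to 54.8). On X the counts were 8 of 89 (8.99%) and 94 of 288 (32.6%). Seen from the genes, the shares were close: 33 of 104 tRNA genes with one within 500 bp were bound (31.7%) and 157 of 508 without (30.9%). The difference of 0.825 percentage points had an interval of -8.33 to 11.0. Among the 140 genes with a unique sequence it was 17.0 points (0.744 to 35.8), from 10 of 30 and 18 of 110 genes.

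Of the 612 tRNA genes, 290 lie within the span of a coding gene, 283 of them in introns only. Of these 85 were bound (29.3%, 24.4 to 34.8), and of the 322 outside coding genes 105 (32.6%, 27.7 to 37.9). The difference was -3.30 percentage points with an interval of -10.5 to 4.05. The background differs between these places, at 0.395% of windows inside coding genes and 1.25% outside. As a ratio to that background the share was larger inside coding genes, but as a difference from it the share was not. The strands had like shares: 29.5% of 166 genes on the strand of the host and 29.3% of 123 on the opposite strand were bound. Of the 283 in introns only, 83 were bound, and of 10 that touch a coding exon 2 were.

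Of tRNA genes with neighbours a somewhat smaller share was bound than of isolated ones, within counting error by the main rule. With another tRNA gene within 1000 bp, 67 of 236 were bound (28.4%, 23.0 to 34.5), and without, 123 of 376 (32.7%, 28.2 to 37.6), a difference of -4.32 points (-11.6 to 3.26). The 9 summits shared by 2 genes all lie at clustered genes, so counting both genes raises the clustered share and not the isolated one. The difference with each summit given only to its nearest gene was not calculated. Without replicate 1 the difference was -7.75 points (-14.6 to -0.543), and with the summit inside the gene body -6.69 points (-11.6 to -1.32). By the number of genes in a run, the shares were 31.4% for pairs, 23.8% for runs of 3 and 21.1% for runs of 4 or more, on 156, 42 and 38 genes. All genes were bound in 12 of the 78 pairs, in 0 of the 14 runs of 3 and in 0 of the 8 longer runs. Some of the fully bound pairs, such as T23F1.t1 and T23F1.t2, share a single summit that is counted for both genes.

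The longest runs, of 5 or 6 genes, are all on X. The run F22F1, of serine, aspartate, methionine and isoleucine genes, had 2 of 6 bound, the aspartate gene F22F1.t3 (signal 46.64) and the methionine gene F22F1.t6 (56.75). The run F28H6 consists of 6 identical histidine genes, and none was bound; its only summits were weak ones of replicate 2, at ranks 13364 and 8283. In the run H08J11, 5 glutamine genes inside ajm-1, the apical junction molecule gene, only H08J11.t3 was bound (92.57, with 26.97 and 75.54 in the replicates), although H08J11.t4 and H08J11.t5 have the same sequence and no summit in any list. In the run K01A12 of arginine and cysteine genes, K01A12.t4 alone was bound, with 45.44.

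The 9 shared summits all lay between the 2 genes of the pair. In 6 of these pairs the genes point away from each other, in 2 toward each other and in 1 the same way. Among all pairs of tRNA genes within 200 bp of each other, 34 point away from each other, and of these 23 had no gene bound, 5 had 1 and 6 had both. Of 13 pairs that point toward each other 7 had none, 4 had 1 and 2 had both, and of 10 in tandem 3 had none, 6 had 1 and 1 had both. A shared summit counts both genes as bound, and which of them it belongs to cannot be told apart.

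Coding genes of RNA polymerase III transcription and tRNA maturation were looked at through their own promoters, in a list that also holds 7 snpc genes of the complex that activates small nuclear RNA genes. Of the 25 listed genes 5 had a thresholded summit within 500 bp of the 5′ end (20%, 8.86 to 39.1), against 8.61% of all 19973 coding genes; replicate 1 gave 4 and replicate 2 gave 6. Without the snpc genes 3 of 18 were bound (16.7%, 5.84 to 39.2). The 5 bound genes included the snpc genes snpc-3.4 (signal 161.7) and snpc-1.1 (70.97). The other 3 were mafr-1 (183.0), rpac-19 (124.9) and tftc-1 (67.92). They encode, in that order, the repressor of RNA polymerase III, a subunit shared by RNA polymerases I and III, and a TFIIIC subunit. The summit at mafr-1 was among the strongest of replicate 2 only, and those at the other 4 genes were among the strongest of both. The largest polymerase subunits rpc-1 and rpc-2, the TFIIIB genes brf-1 and tbp-1, the other TFIIIC genes tftc-3 and tftc-5, the nuclear export gene xpo-3 and the CCA-adding enzyme gene cca-1 had none.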

How the data were processed

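The authors deposited peak lists in ce10 and ce11 with a signal value for each peak. Per the deposited text indexes, relaxed lists came from the alignments of each replicate, or of both pooled, with a control, and the thresholded list from those lists. Aligner and peak caller were not given in the sources used here. The ce11 lists were used and the ce10 lists were not; the control and the read numbers were not analysed here.

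The members and lists were chosen with earlier results of these data known. Genes came from Ensembl release 115 and amino acids from RefSeq, which matched 612 of 612 genes by WormBase identifier. No set test was run, since there is 1 group: shares have Wilson intervals (scipy 1.17.1) and differences of shares Newcombe intervals (statsmodels 0.14.6), with Python 3.11.15. Scoring was checked on simulated data. For the shares by copy number, identical copies were counted over both strands of the nuclear genome. The sizes of groups of identical genes count annotated tRNA genes only, so a group can have fewer genes than its sequence has copies. Named genes were the 12 strongest found within 200 bp in both replicate lists, and the strongest bound gene of each amino acid. The strongest bound genes of the 3 largest groups of copies and those at the 100 strongest peaks were also named. So were the 3 largest rank gaps among bound genes with a summit in both relaxed lists. Coding genes within 500 bp of the first 12 were named too. Others are said to be chosen later or belong to groups described whole. The alternatives tried were other distances, peak overlap, merged peaks, shared summits, thresholds, each replicate alone, unique sequences, cluster distances and no nearby coding start.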

Additional observations from a re-analysis of the deposited data

How the results depend on the processing

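Of 59 planned recalculations 49 were counted as keeping their result and 10 as moving it. The 49 include changes in sign and intervals that no longer included equal shares. With the summit inside the gene body the X difference turned to -3.12 points. Its interval was 1.25 to 13.0 with the stronger part of the thresholded list and 0.65 to 12.7 with peaks strong in both replicates. The clustering interval was -14.6 to -0.543 without replicate 1 and -11.6 to -1.32 with the summit inside the gene body. The count of 190 bound tRNA genes became 77 with the summit inside the gene body, 96 with the stronger part of the thresholded list, 102 with peaks strong in both replicates, 313 with the whole pooled relaxed list and 28 of 140 with unique sequences; each of these except the relaxed list counts fewer peaks, positions or genes by construction. Leaving out a replicate gave 164 to 176. The difference between X and autosomes ranged from 2.01 to 12.3 percentage points when a replicate was left out, and the cause was not tested. The difference by nearby coding start was 17.0 points with unique sequences. The median signal at bound genes was 91.9 with the stronger part of the list and 87.4 with peaks strong in both replicates, which keeps stronger peaks by construction. The share of summits inside the gene was 50% with unique sequences, on 28 summits. Leaving out a replicate moved the difference inside and outside coding genes between -4.85 and 0.844 points, by clustering between -7.75 and -2.67, and by coding start between -1.05 and 7.10. Pseudogene counts, added after seeing the data, went from 2 to 22 in the relaxed list. No paired analysis was possible because there is only 1 group. Read depth is unknown here, so no interval covers it.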

Other observations

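Other short RNA genes were scored by the same rule. None of the 16 annotated 5S rRNA genes, which RNA polymerase III also transcribes, had a summit in the thresholded, replicate or pooled relaxed list; they are near-identical tandem copies, and how their reads were placed is not given in the sources used here. The gene of the RNase P RNA, rpr-1, which encodes the RNA of the enzyme that trims tRNA 5′ ends, was bound with a signal of 69.57 and in both replicates. Of 12 SL1 spliced leader RNA genes none was bound, and of 18 SL2-type genes 9 were, with a highest signal of 292.7. Replicate 1 also gave 9 SL2-type genes and replicate 2 gave 4. How reads at the SL1 genes were placed is not given either, and the difference between the SL1 and SL2-type genes was not tested.

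The 2 bound tRNA pseudogenes were D1046.t1 (signal 141.6, ranks 477 and 520 in the replicates) and T08B2.t1 (signal 91.44, ranks 643 and 1890). The nearest tRNA gene was 73588 bp and 48563 bp from their summits.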
